A study of Homo sapiens with 4 samples.

Results

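The nuclear-encoded subunits of respiratory complex I were followed as a group of 36 listed genes among the 58302 Ensembl genes of the deposited tables. They were found by symbol through the GENCODE 29 annotation, and all 36 had a row. The libraries were polyA RNA-seq of the established human bladder carcinoma line T24. Of the 4 libraries, 2 came from T24 cells in which IGF2BP3, an RNA-binding protein gene, had been knocked out with CRISPR/Cas9, and 2 from T24 cells labelled control. The labels name no further treatment, do not say what the control cells received, and do not say whether the knockout libraries came from 1 clone or several. Nor do they say whether the 2 libraries in each group are separate cultures, so the spread behind the p-values may be technical. The test takes that spread mostly from genes of like level. An SE therefore does not show how closely a gene's own libraries agree.

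Complex I is the entry point of electrons from NADH into the mitochondrial respiratory chain, and it couples electron transfer to ubiquinone with proton pumping. It is L-shaped: a peripheral arm in the matrix carries the flavin and the iron-sulfur clusters, and a membrane arm carries the proton pumps. Nuclear genes encode the peripheral core subunits and the accessory subunits that surround and stabilise the core, while the membrane core is encoded by the mitochondrial genome. The list here holds 6 peripheral core subunits, 9 accessory subunits of the peripheral arm, 9 of the proximal and 11 of the distal membrane arm, and NDUFAB1, the acyl carrier protein bound at both arms.

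The steps of the values put the read total that scales the FPKM at 811823 and 1240207 in the knockouts and 2162179 and 1870884 in the controls. These totals are shallow for a transcriptome, so that 1 read of a 1 kb transcript was worth between 0.462 and 1.23 FPKM. FPKM here is reads per kilobase of a gene's longest annotated transcript scaled by that total. Whole reads recovered over all genes came to 100.5 to 100.7% of it, and which reads the total counts is not known. IGF2BP3 itself was listed at 0 and 0.190 FPKM in the knockouts, against 2.94 and 21.5 FPKM in the controls, a log2 fold change of −3.89 ± 2.83 (SE) that did not pass in limma (adjusted p = 0.955). Of 7 markers of the line, KRT7, KRT8, KRT18, VIM and CD44 were above 0 in at least 1 library and KRT19 and EPCAM were at 0 in all libraries. The 7 summed to 2157 and 1758 FPKM in the knockouts, against 961 and 936 FPKM in the controls, and their part in the results was not tested. All 7 leukocyte and all 3 erythroid markers were at 0 throughout, as were 3 of 4 endothelial and 4 of 6 fibroblast and muscle markers. In bulk RNA, fewer cells of a type and less RNA per cell cannot be told apart.

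Among the complex I subunits, 1 gene separated the groups in the test over all genes: NDUFB10, a small subunit on the intermembrane-space side of the distal membrane arm. NDUFB10 (ENSG00000140990, chr16:1959508-1961975, plus strand, GRCh38) stood at 166 FPKM in knockout 1 and 121 FPKM in knockout 2, and was listed at 0 in both controls. The groups did not overlap, and both knockout values were well above the worth of 1 read. Its log2 fold change on the log2(FPKM + 0.5) scale was 8.15 ± 1.99 (SE, n = 2 and 2; limma adjusted p = 0.0462). That size depends on the pseudocount. In reads, 129 and 144 in the knockouts against 0 of 2162179 and 0 of 1870884 in the controls put the gene at least 179-fold higher in the knockouts, taking 3 reads over the control group as the floor. The bound takes in counting error alone and leaves out the spread between libraries, so it is no minimum for a difference between the groups. Within the controls, single genes went from near 0 to like counts, such as NDUFA12 with 1 and 182 reads and TMEM126B with 197 and 0. PCR copies of a molecule also cannot be told from separate molecules here.

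Of the 36 members, 33 reached a mean of 1 FPKM over the 4 libraries and were tested, and 1 of them passed an adjusted p of 0.05, beside 0.0872% of the 11463 genes tested (10 genes). At an unadjusted p under 0.05, 6 of the 33 members stood, beside 3.91% of all genes. That count was 2 of 33 in limma-voom (364 of 11463 genes) and 1 of 33 in limma without the trend (415 of 11463 genes). The 6 were NDUFB10, NDUFS6, NDUFS5 and NDUFB1, higher in the knockouts, and NDUFA1 and NDUFC1, lower. The members had no common direction, with 17 fitted higher and 16 lower in the knockouts. Their median log2 fold change was 0.03, with fitted values between −3.74 and 8.15, beside a median of −0.08 over all genes tested. With 1 library left out, the log2 fold change of NDUFB10 stayed between 7.93 and 8.38. Those fits leave 1 library to stand for a group, so whether the call holds cannot be judged from them. Of the 11 alternatives that keep all 4 libraries, the call was lost in 7. Over these 11 the limma adjusted p of NDUFB10 lay between 0.0232 and 0.891.

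**Figure D1:**
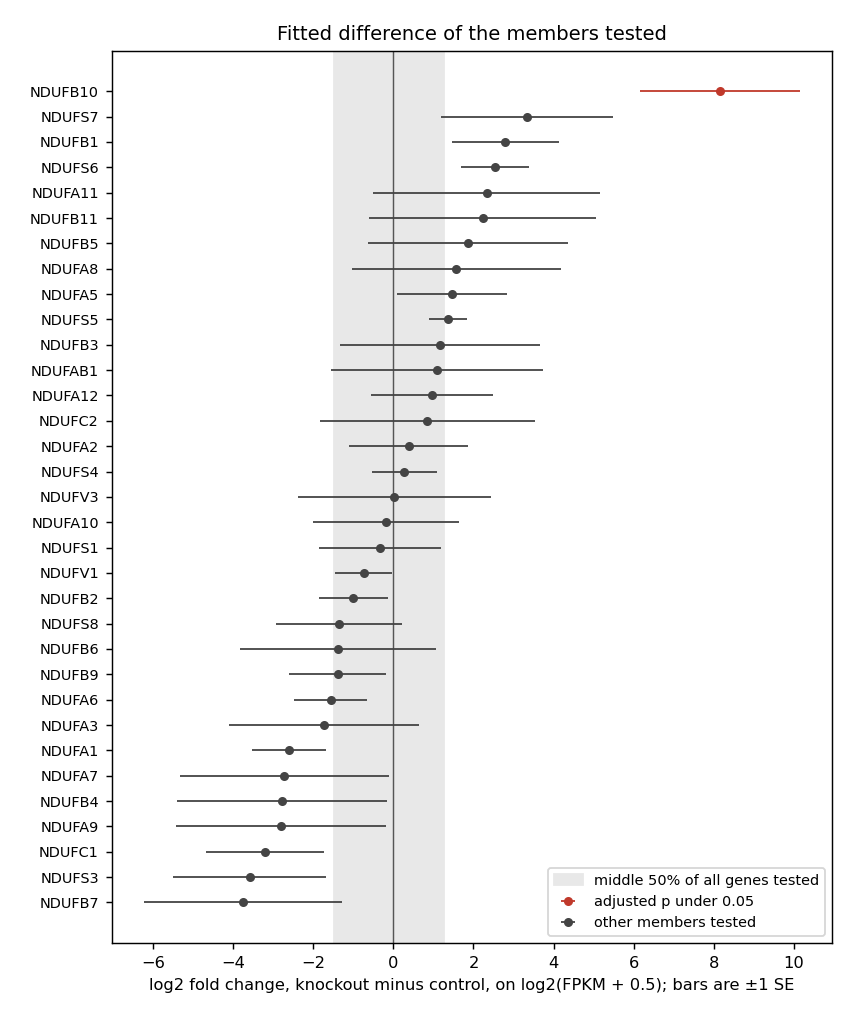
Fitted log2 fold change (knockout minus control, horizontal axis) of the 33 members tested, with bars of ±1 SE and the middle 50% of all genes tested shaded. NDUFB10, at 8.15, is the member past the adjusted threshold, and the others lie between −3.74 and 3.34.

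Groups that did not overlap were counted in each direction. Both knockouts lay above both controls for 8 of the 33 members tested, beside 12.1% of all genes tested, and both lay below for 4, beside 14.4% (26.5% in either direction). The 8 were NDUFB10, NDUFS7, NDUFS6, NDUFA5, NDUFA11, NDUFS5, NDUFB1 and NDUFB5. The 4 were NDUFV1, NDUFS3, NDUFA9 and NDUFB7. With 2 libraries a group these counts carry no test.

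Of the 5 core subunits of the peripheral arm that were tested, 4 were fitted lower in the knockouts, beside 5938 of all 11463 genes, and none passed in limma, with 0 at an unadjusted p under 0.05. NDUFV1 and NDUFS3 lay below both controls, NDUFS7 lay above, and NDUFS1 and NDUFS8 overlapped. NDUFV1 binds NADH and the flavin where electrons enter. Its level was 88.8 and 83.0 FPKM in the knockouts, against 173 and 120.2 FPKM in the controls, and the 2 knockouts lay close together below both controls. NDUFS3, a core subunit near the quinone site, was listed at 0 in knockout 1 and had 13.7 FPKM in knockout 2, against 36.9 and 26.9 FPKM in the controls. Its log2 fold change was −3.59 ± 1.91 (SE; limma adjusted p = 0.955), and it was −1.17 without knockout 1 and −6.00 without knockout 2.

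NDUFS7, which carries the last iron-sulfur cluster before ubiquinone, went the other way. It had 16.8 and 28.2 FPKM in the knockouts, against 1.24 and 2.28 FPKM in the controls, from 51 and 131 reads against 10 and 16. The fitted log2 fold change of 3.34 ± 2.15 (SE; limma adjusted p = 0.955) stayed between 2.97 and 3.71 with 1 library left out. Exons of the opposite-strand genes AC005329.1 and AC005329.3 cover 48.5% of its coding bases, and without a stated strand setting their reads cannot be told apart from those of NDUFS7.

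The other core subunits overlapped between the groups. NDUFS1, the largest core subunit, was among the steadiest members, at 16.9 and 10.6 FPKM in the knockouts and 19.1 and 15.3 FPKM in the controls. NDUFS8, an iron-sulfur subunit, had 1.60 and 38.8 FPKM in the knockouts, against 23.0 and 22.6 FPKM in the controls, so knockout 1 alone was low. NDUFV2, the iron-sulfur partner of NDUFV1, was at 0 in 3 libraries and at 1.96 FPKM in control 1, and was not tested. Summed over the 6 core subunits, the level was 124 and 174 FPKM in the knockouts, against 255 and 187 FPKM in the controls, with no overlap. Without NDUFV1 the sums were 35.3 and 91.4 FPKM against 82.2 and 67.1 FPKM, and the groups overlapped.

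**Figure D2:**
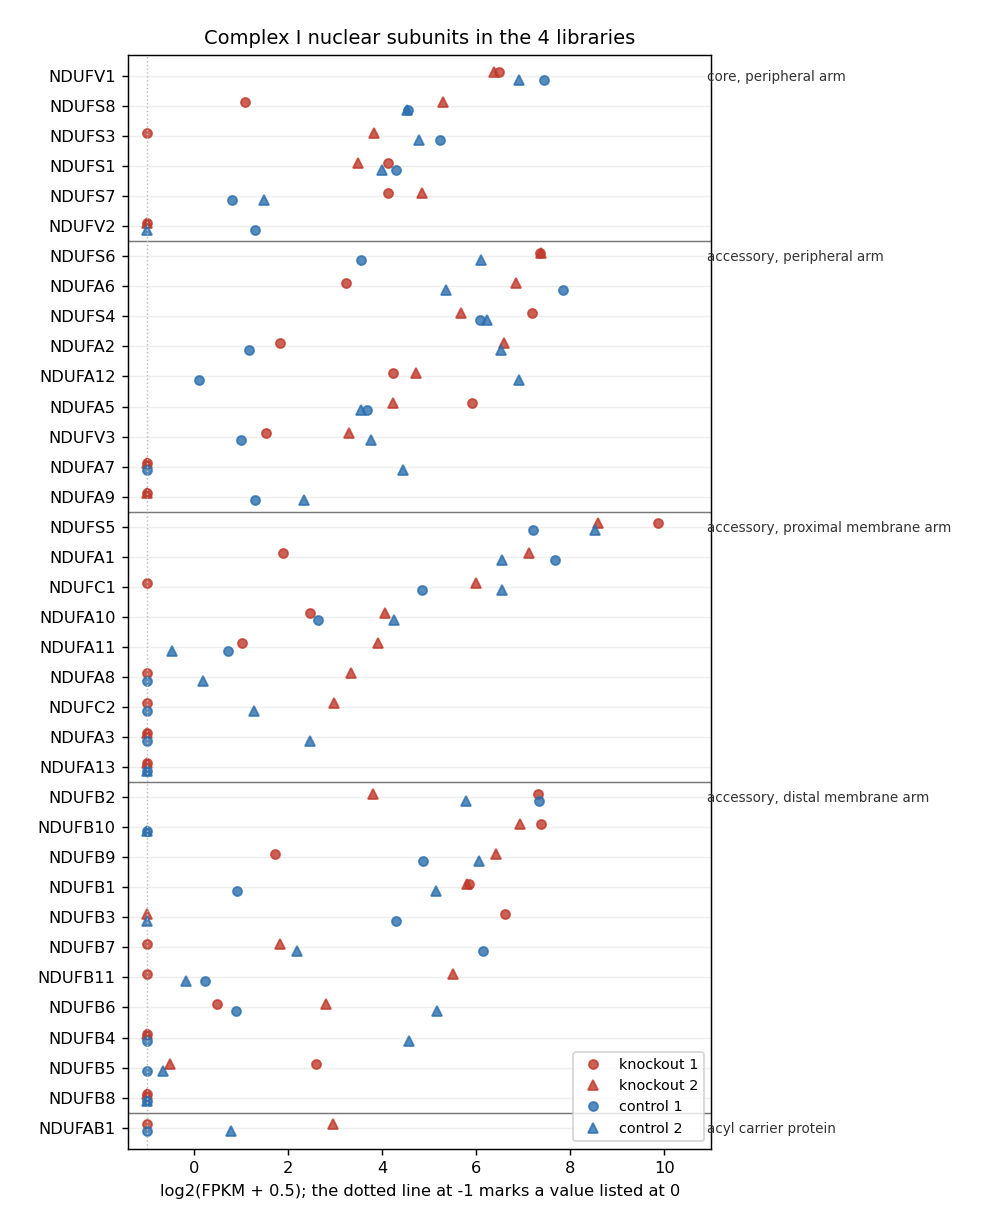
Level of each of the 36 members as log2(FPKM + 0.5) in the 2 knockout (red) and 2 control (blue) libraries, ordered by place in the complex and by mean FPKM. Libraries of 1 group often lie far apart, and NDUFB10 is at the 0 line in both controls.

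Accessory subunits of the peripheral arm were 9, all tested, with 6 fitted higher and 3 lower in the knockouts. NDUFS6, a zinc-binding subunit, had 163 and 166 FPKM in the knockouts, against 11.1 and 68.2 FPKM in the controls. The knockouts agreed closely and the controls did not. Its log2 fold change of 2.55 ± 0.85 (SE) missed the threshold (limma adjusted p = 0.613) and was 1.26 without control 1 and 3.83 without control 2. NDUFA5 had 60.0 and 18.3 FPKM in the knockouts, against 12.2 and 11.2 FPKM in the controls, with both knockouts above both controls.

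NDUFA9, a member of the short-chain dehydrogenase family at the joint of the arms, was the mirror of NDUFB10 at a far lower FPKM. The longest transcript behind that FPKM has 8363 bases, against 958 for NDUFB10, which lowers the FPKM of NDUFA9 for the same reads. NDUFA9 was listed at 0 in both knockouts and had 1.94 and 4.54 FPKM in the controls. Those values stood for 35 and 71 reads, which put it at least 18.0-fold lower in the knockouts with 3 reads over the knockout group as the floor. This bound too takes in counting error alone and leaves out the spread between libraries. NDUFA9 did not pass in limma (adjusted p = 0.955). Genes at 0 in both knockouts and above 0 in both controls made up 2.29% of all genes tested, and the reverse, which NDUFB10 shows, 1.16%. At 50 or more reads in both libraries of the other group, 29 genes were at 0 in both knockouts and 8, NDUFB10 among them, were at 0 in both controls. At 35 or more reads in both controls, which takes in NDUFA9, 44 genes were at 0 in both knockouts. An annotated pseudogene of NDUFA9 had 0 and 7 reads in the knockouts and 0 and 7 in the controls, and how reads were divided between the gene and this copy is not known.

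Other accessory subunits of the peripheral arm differed most between libraries of 1 group. NDUFA6, which belongs to the LYR family of proteins that dock the acyl carrier protein, had 8.83 and 115 FPKM in the knockouts, against 228 and 40.4 FPKM in the controls. NDUFA2 had 3.06 and 96.3 FPKM in the knockouts, against 1.73 and 91.1 FPKM in the controls. NDUFA12 had 18.2 and 25.8 FPKM in the knockouts, against 0.569 and 119.7 FPKM in the controls. In each of these genes the gap within at least 1 group was wider than the fitted difference between the groups. NDUFS4, needed to attach the NADH-binding part of the arm, stayed within a narrower range at 145 and 50.3 FPKM in the knockouts and 66.6 and 74.4 FPKM in the controls. NDUFV3 overlapped at 2.37 and 9.31 FPKM in the knockouts and 1.48 and 13.1 FPKM in the controls. NDUFA7 was above 0 in control 2 alone, at 21.3 FPKM.

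The proximal membrane arm held the most abundant member. NDUFS5, a small cysteine-rich subunit on the intermembrane-space side, had 933 and 383 FPKM in the knockouts, against 147 and 369 FPKM in the controls. Both knockouts lay above both controls, knockout 2 by a narrow margin over control 2. The log2 fold change of 1.36 ± 0.47 (SE; limma adjusted p = 0.663) was 0.72 without knockout 1 and 2.00 without knockout 2, and 0.70 without control 1 and 2.02 without control 2. NDUFS5 made up 47.7% of the summed FPKM of the 36 members in knockout 1 and 23.6% in knockout 2, and 25.8% in control 2, while in control 1 the leading member was NDUFA6 at 18.3%.

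NDUFA1 and NDUFC1 were low in knockout 1 only. NDUFA1, an X-linked subunit required for assembly, had 3.22 and 138 FPKM in the knockouts, against 204 and 92.8 FPKM in the controls. Its fitted log2 fold change of −2.61 ± 0.92 (SE; limma adjusted p = 0.700) was 0.0024 without knockout 1. NDUFC1 was listed at 0 in knockout 1 and had 62.9 FPKM in knockout 2, against 28.3 and 92.7 FPKM in the controls. Its −3.20 ± 1.47 (SE; limma adjusted p = 0.955) turned to 0.29 without knockout 1. Summed without NDUFS5, the proximal membrane arm came to 9.76 FPKM in knockout 1 and 248 FPKM in knockout 2, against 239 and 212 FPKM in the controls. The difference between the groups here rests on 1 library.

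NDUFA11, a membrane subunit, had 1.54 and 14.4 FPKM in the knockouts, against 1.15 and 0.222 FPKM in the controls, or 3 and 43 reads against 6 and 1. NDUFA10, related to nucleoside kinases, overlapped at 5.01 and 16.2 FPKM in the knockouts and 5.74 and 18.6 FPKM in the controls. NDUFA8, another cysteine-rich subunit, and NDUFC2 were each at 0 in knockout 1 and control 1 and under 10 FPKM elsewhere. NDUFA3 was above 0 in control 2 alone, from 9 reads, and NDUFA13 was at 0 throughout and not tested.

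In the distal membrane arm, 10 of 11 subunits were tested, 5 fitted higher and 5 lower in the knockouts. NDUFB1 had 57.3 and 55.0 FPKM in the knockouts, against 1.39 and 34.9 FPKM in the controls. Its log2 fold change of 2.79 ± 1.33 (SE; limma adjusted p = 0.955) was 0.68 without control 1 and 4.91 without control 2. NDUFB7, a cysteine-rich subunit, was listed at 0 and 3.04 FPKM in the knockouts, against 69.7 and 4.03 FPKM in the controls. It had the lowest fitted log2 fold change of the members, −3.74 ± 2.47 (SE; limma adjusted p = 0.955), which was −1.77 without control 1.

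The rest of the distal arm overlapped, apart from NDUFB5. That gene had 5.48 and 0.199 FPKM in the knockouts, against 0 and 0.132 FPKM in the controls, and 3 of these values stood for at most 1 read. NDUFB2 had 158 and 13.6 FPKM in the knockouts, against 160.2 and 54.5 FPKM in the controls, with 1 high library in each group. NDUFB3 was above 0 only in knockout 1, at 97.9 FPKM, and in control 1, at 19.0 FPKM. NDUFB9, a LYR-family subunit, had 2.80 and 85.6 FPKM in the knockouts, against 28.8 and 65.6 FPKM in the controls. NDUFB11, an X-linked subunit, had 44.7 FPKM in knockout 2 and under 1 FPKM in the other 3 libraries. NDUFB6 had 0.902 and 6.49 FPKM in the knockouts, against 1.35 and 35.2 FPKM in the controls. NDUFB4 was above 0 in control 2 alone, at 23.2 FPKM, and NDUFB8 was at 0 throughout and not tested. Summed over the distal arm, the level was 488 and 330 FPKM in the knockouts, against 281 and 218 FPKM in the controls. Without NDUFB10 these sums were 323 and 209 FPKM against 281 and 218 FPKM, and the groups overlapped.

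NDUFAB1, which also serves mitochondrial fatty acid synthesis, was near the detection limit at 0 and 7.29 FPKM in the knockouts and 0 and 1.21 FPKM in the controls. Over all 36 members the summed level was 1955 and 1623 FPKM in the knockouts, against 1246 and 1431 FPKM in the controls. These are 0.540% and 0.454% of the summed FPKM of the knockout libraries and 0.349% and 0.392% of those of the controls. Without NDUFS5 the sums were 1022 and 1241 FPKM against 1099 and 1062 FPKM, and the knockouts lay on either side of the controls.

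**Figure D3:**
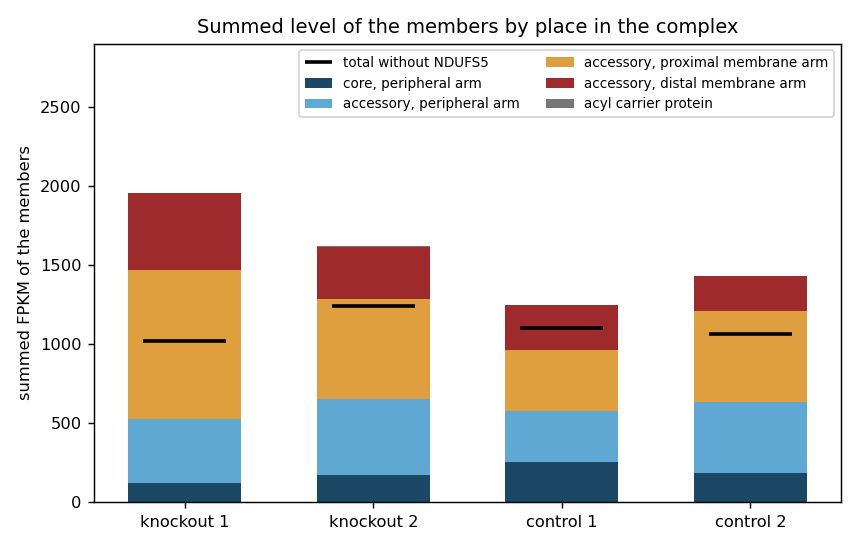
Summed FPKM of the members in each library, stacked by place in the complex, with a black line at the total without NDUFS5. The full totals are higher in the knockouts (1955 and 1623) than in the controls (1246 and 1431), and the totals without NDUFS5 overlap.

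Many subunits of the complex were listed at 0 in single libraries. Of the 36, 14 were at 0 in knockout 1 and 8 in knockout 2, against 10 in control 1 and 5 in control 2. Restricted to the 33 tested, the shares at 0 were 33.3% and 15.2% in the knockouts and 24.2% and 6.06% in the controls. Over all genes tested the shares were 34.7% and 13.9% in the knockouts and 28.3% and 12.3% in the controls. The members thus followed their libraries: knockout 1 and control 1 had more zeros than knockout 2 and control 2, for complex I and for all genes alike. Above 0 in all 4 libraries were 19 members.

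**Figure D4:**
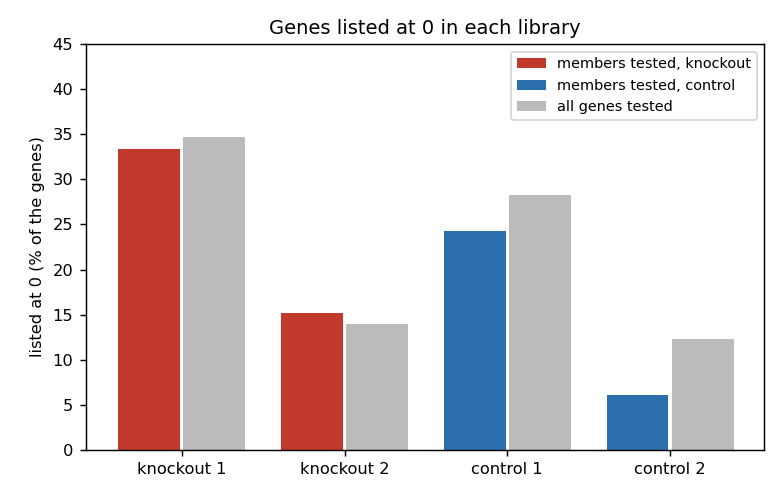
Share of genes listed at 0 in each library, for the 33 members tested (red for knockout, blue for control) and for all 11463 genes tested (grey). Members and all genes stand at similar heights in each library, with control 2 lowest at 6.06% and 12.3%.

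For the members, spread between libraries of 1 group lay within the range of that between groups. The median absolute difference in log2(FPKM + 0.5) over the 33 members was 2.32 between the knockouts and 1.55 between the controls. Across groups it ran from 0.95 (knockout 2 and control 2) to 2.63 (knockout 1 and control 2). Over all genes tested it was 1.89 between the knockouts and 1.60 between the controls, and 1.15 to 1.85 across groups. Pearson's correlation of the log2 levels across the 33 members was 0.48 between the knockouts and 0.57 between the controls, and 0.29 to 0.48 between libraries of different groups. These correlations are across genes, whose levels in a library share its depth, and genes are not independent replicates.

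**Figure D5:**
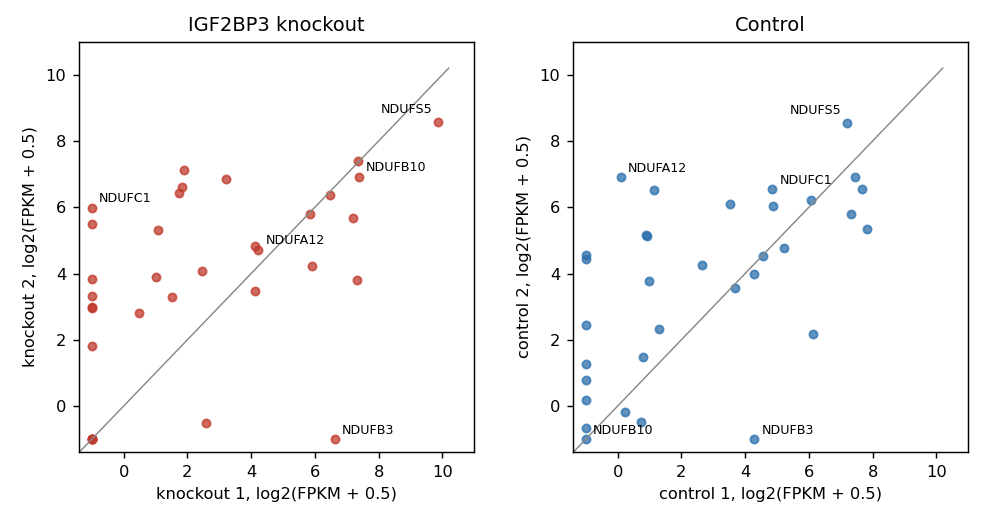
Level of the 33 members tested in 1 library against the other of its group, as log2(FPKM + 0.5), for the knockouts (left) and the controls (right), with the line of equality. Points far from the line, such as NDUFC1 and NDUFB3 in the knockouts and NDUFA12 in the controls, are members whose replicates disagree.

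Overlap with other annotated genes was counted for the members by their zeros, and not over all genes. Of the 17 members at 0 in at least 1 library, 11 had no coding base in another gene. Of the 6 members at 0 in 3 or 4 libraries, 4 had over 50% of their coding bases inside exons of another GENCODE 29 gene on the same strand. For NDUFB8 the share was 85.2% (with AL133352.1), for NDUFV2 84.7% (AP005263.1), for NDUFA7 78.3% (AC010323.1) and for NDUFA13, also known as GRIM-19, 55.2% (AC011448.1 and YJEFN3). The remaining pair, NDUFA3 and NDUFB4, had no coding base in another gene. NDUFB8 and NDUFA13 were at 0 in all 4 libraries, and so were the overlapping genes named other than YJEFN3, which had 0 and 22.3 FPKM in the knockouts, against 46.0 and 0.192 FPKM in the controls. Of the 19 members never at 0, none had over 50% and 14 had no coding base in another gene. Of the 11 members at 0 in 1 or 2 libraries, NDUFC2 (76.9%, with the readthrough gene NDUFC2-KCTD14) and NDUFA9 (67.9%) exceeded 50% and 9 had none. The part of this overlap in the zeros was not tested. On the opposite strand, other genes cover 44.9% of the exon bases of NDUFB11, 44.5% of those of NDUFA1 and 35.1% of those of NDUFB2. NDUFB10 has no exon base in another annotated gene, and its 2 annotated pseudogenes were at 0 in all libraries. Besides that of NDUFA9, pseudogenes of NDUFV2 (0 and 4 reads in the knockouts, 0 and 3 in the controls) and NDUFB1 (0 in both knockouts, 0 and 4 reads in the controls) were above 0.

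Promoters of the members were compared for motifs of transcription factors known for respiratory chain genes. RefSeq promoters (GRCh38.p14, 250 bases before to 50 after the start) were matched for 32 of the 36 members by symbol. NDUFB5, NDUFB9, NDUFC2 and NDUFS5 were not matched. On either strand, AAGATGGC, the core of the YY1 site, was in 18.8% of the member promoters (6 of 32: NDUFA3, NDUFA6, NDUFA7, NDUFA9, NDUFS4 and NDUFS7), beside 3.03% of all 27305 promoters. CCGGAAGT, an ETS site as bound by GABP, was in 6.25% of the member promoters (NDUFS1 and NDUFA13), beside 4.44% of all. CGCATGCG is the centre of the NRF1 palindrome, shortened after matches of the longer palindrome had been seen. It was in 12.5% of the member promoters (4 of 32: NDUFA8, NDUFB4, NDUFS6 and NDUFS7), beside 2.19% of all. These are matches of letters and not evidence of binding. 3 promoters are shown, chosen after the values were seen: that of NDUFB10, the member past the threshold, which holds none of the 3 motifs, and those of NDUFS7 and NDUFA9, which both hold the YY1 core and whose groups separated in opposite directions. Capitals mark the YY1 core and, upstream of it in NDUFS7, the NRF1 centre.
NDUFB10 (chr16:1959288-1959587, plus strand): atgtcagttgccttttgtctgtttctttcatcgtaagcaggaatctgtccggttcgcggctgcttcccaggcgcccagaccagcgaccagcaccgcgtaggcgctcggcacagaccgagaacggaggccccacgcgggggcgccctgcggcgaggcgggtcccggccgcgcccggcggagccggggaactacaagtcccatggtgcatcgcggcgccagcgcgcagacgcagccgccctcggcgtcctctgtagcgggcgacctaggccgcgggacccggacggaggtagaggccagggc
NDUFS7 (chr19:1383657-1383956, plus strand): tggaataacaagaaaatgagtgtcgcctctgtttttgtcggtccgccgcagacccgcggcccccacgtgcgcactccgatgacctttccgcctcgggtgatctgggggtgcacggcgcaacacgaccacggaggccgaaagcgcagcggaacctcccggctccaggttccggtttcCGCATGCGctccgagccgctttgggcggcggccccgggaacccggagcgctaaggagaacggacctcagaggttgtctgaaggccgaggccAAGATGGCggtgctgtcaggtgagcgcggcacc
NDUFA9 (chr12:4648864-4649163, plus strand): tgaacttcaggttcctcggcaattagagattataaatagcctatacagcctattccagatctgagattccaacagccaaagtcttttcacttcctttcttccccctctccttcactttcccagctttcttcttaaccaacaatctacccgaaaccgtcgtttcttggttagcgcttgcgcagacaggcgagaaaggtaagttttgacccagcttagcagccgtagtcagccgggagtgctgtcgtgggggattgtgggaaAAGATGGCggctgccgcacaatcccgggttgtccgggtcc

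Assembly factors, the proteins that build complex I without staying in it, were fitted lower more often than higher in the knockouts, 12 against 5 of the 17 tested (19 listed), with a median log2 fold change of −1.23. Over all genes tested, 5938 of 11463 were fitted lower, with a median of −0.08. The median gap between the knockouts was 3.96 on the log2 scale for these 17 genes, beside 1.89 over all genes tested. None passed in limma (1 at an unadjusted p under 0.05) or in limma-voom (0 at an unadjusted p under 0.05). Both knockouts lay below both controls for 4 of the 17, beside 14.4% of all genes tested, and above for 0, beside 12.1%. NDUFAF1, a chaperone of the early membrane arm, had 0.777 and 2.54 FPKM in the knockouts, against 42.0 and 39.1 FPKM in the controls. Its reads were 1 and 5 against 144 and 116, and its log2 fold change of −4.38 ± 1.93 (SE; limma adjusted p = 0.955) stayed between −5.01 and −3.75 with 1 library left out. NDUFAF4, another assembly factor, was listed at 0 in both knockouts and had 12.1 and 1.56 FPKM in the controls (log2 fold change −3.35 ± 2.73, SE). At the other end, NDUFAF8 had 342 and 18.5 FPKM in the knockouts, against 72.4 and 5.77 FPKM in the controls, where 1 library of each group was high. Its fit of 1.92 ± 1.03 (log2, SE) turned to −0.17 once knockout 1 was left out. NDUFAF6 had 7.28 FPKM in knockout 2 and was at 0 elsewhere.

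The 7 mitochondrially encoded subunits, the membrane core, were all above 0 in every library, and none passed in limma (1 at an unadjusted p under 0.05) or in limma-voom (0). MT-ND4 had 1060 and 486 FPKM in the knockouts, against 687 and 574 FPKM in the controls, and MT-ND5 had 1193 and 402 FPKM in the knockouts, against 817 and 526 FPKM in the controls. In both, the controls lay between the knockouts. MT-ND6, on the other strand of the mitochondrial genome, had 429 and 473 FPKM in the knockouts, against 571 and 1078 FPKM in the controls, so that both knockouts lay below both controls (log2 fold change −0.80 ± 0.40, SE; limma adjusted p = 0.955). MT-ND3 had 28.5 and 69.9 FPKM in the knockouts, against 5.35 and 13.9 FPKM in the controls, with both knockouts above both controls. These values came from few reads, 8 and 30 in the knockouts and 4 and 9 in the controls.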

How the data were processed

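Per the labels' protocols, RNA was extracted with Trizol and made into Illumina TruSeq libraries. For each library the authors deposited FPKM per Ensembl gene, and the files' names point to HTSeq. The submitters' processing notes name hg38. Aligner, annotation release, strand setting and duplicate removal: not given in the sources used here.

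Members were chosen, and lists and tests set, with earlier results of these data known. Names, positions and lengths came from GENCODE 29, which matched 58039 of 58302 genes. FPKM times the longest transcript gave whole reads for 96.4 to 96.5% of genes above 0 (tolerance 0.0001), and lengths of 513 genes were solved from the values. Long annotated transcripts understate genes expressed from short ones.

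Genes with a mean of at least 1 FPKM over the libraries were tested with limma 3.58.1 in R 4.3.3 (lmFit, eBayes with trend) on log2(FPKM + 0.5), knockout minus control, two-sided, Benjamini-Hochberg over 11463 genes, threshold 0.05. The trend takes the spread from genes of like level, and fold changes understate low genes. NDUFA1, with a log2 gap of 5.22 between the knockouts, had an SE of 0.92. NDUFB10, with gaps of 0.45 in the knockouts and 0 in the controls, had an SE of 1.99. Without the trend these SEs were 2.07 and 1.38. The fit's code was tested on simulated data whose replicate spread was set far narrower than that of these libraries, so the test bears on the computation and not on power. Members past the threshold and the 3 largest and 3 smallest folds are given in full. The folds of NDUFS6, NDUFS5 and NDUFA1 were added after their values were seen. The NRF1 letters searched were shortened from a longer palindrome after its matches (2 of 32 promoters) had been seen. Alternatives covered limma-voom on recovered reads, protein-coding genes, each library left out, the pseudocount, the filter, 3 scalings, the trend and a replicate block. Python 3.11.15 drew the figures (matplotlib 3.10.9) and made the tables (pandas 2.3.3).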

Additional observations from a re-analysis of the deposited data

How the results depend on the processing

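NDUFB10 was the 1 complex I member past the threshold, and no other member passed in any of the 11 alternatives that keep all 4 libraries. Members at an unadjusted p under 0.05 numbered 6, against 1 without trend and 2 in limma-voom. The count of members called stayed at 1 with a pseudocount of 1, quantile normalization, the replicate block and limma-voom. Fits with a library left out, where 1 library stands for a group, are not counted here. The count of members called was 0 with a pseudocount of 0.1, no filter, a mean FPKM of at least 5 and upper-quartile scaling. It was also 0 with each library scaled to the same sum, eBayes without trend and protein-coding genes only. The cause of these changes was not tested. Counts over all genes were 4 under upper-quartile scaling (335 at an unadjusted p under 0.05), 0 without trend (415) and 2 among the 9624 protein-coding genes tested, against 10. Upper-quartile scaling moved the median over all genes to −0.20, against −0.08. The members' median of 0.03 lay between −0.89 and 1.08 with a library left out and between −0.26 and 0.11 otherwise. IGF2BP3 stayed below 0 in all 15 alternatives. With a library left out, the range was −6.70 to 0.29 for NDUFC1, −5.22 to 0.0024 for NDUFA1 and −0.17 to 4.00 for NDUFAF8. Of the 33 members tested, 17 changed sign in at least 1 such fit, and NDUFA10 and NDUFV3 did so under other settings. Deviations of single genes did not correlate between same-numbered libraries (−0.0040 over 11463 genes). That correlation cannot see a shift shared by whole libraries, and knockout 1 and control 1 both had more zeros. With the number as a block 14 genes and 1 member passed. Members with under 10 reads numbered 22 and 11 of 36 in the knockouts and 17 and 13 in the controls, and these counts did not follow depth, since control 1 is the deepest library.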
